A study of Caenorhabditis elegans with 24 samples.

Results

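The insulin to FOXO signalling core of Caenorhabditis elegans was taken as 10 genes, chosen by WormBase symbol and matched to gene identifiers: the receptor gene daf-2, the adaptor genes ist-1 and aap-1, the lipid kinase gene age-1, the lipid phosphatase gene daf-18, the protein kinase genes pdk-1, akt-1, akt-2 and sgk-1, and the FOXO gene daf-16. They are 10 of 46904 genes in the deposited tables, and all 10 passed the low-count filter that left 16698 genes for testing. RNA came from whole worms of the wild-type strain N2 and of strain CF1041, which carries daf-2(e1370), collected on days 1, 4, 7 and 11 of adulthood with 3 libraries in each of 8 groups. Worms of every group hatched from bleached embryos held 16 hours in buffer at 20°C, grew on OP50 bacteria and received 50 µM FUDR, a drug that stops progeny from hatching, from the last larval stage on. Nothing in the labels tells whether a group's 3 libraries were grown as separate cultures. The p-values below therefore rest on the spread between libraries, part or all of which may be technical. The allele e1370 is a reduced-function missense allele, and the level of the daf-2 transcript therefore does not check the strain labels. The plots call CF1041 by its mutated gene, daf-2.

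The pathway carries a signal from secreted insulin-like peptides to gene expression. DAF-2, the worm's insulin/IGF-1 receptor, acts through adaptors and the lipid kinase AGE-1 to raise the membrane lipid PIP3, and the lipid phosphatase DAF-18 removes it. PIP3 brings PDK-1 and the AKT kinases into action, and these phosphorylate the FOXO transcription factor DAF-16 and hold it out of the nucleus, so that reduced DAF-2 activity lets DAF-16 act on genes for stress resistance and long life. SGK-1, a relative of the AKT kinases, acts beside them and also downstream of the TORC2 complex. Much of this control is by phosphorylation and by movement of DAF-16, which RNA counts do not measure.

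On the WBcel235 build with the Ensembl 115 annotation, 4 of the 10 genes lie on the X chromosome: ist-1 (WBGene00002163, X:7126648-7139666, plus strand), pdk-1 (WBGene00003965, X:1321344-1327986, plus), akt-2 (WBGene00000103, X:14147700-14152070, plus) and sgk-1 (WBGene00004789, X:16254842-16262122, minus). Chromosome I holds aap-1 (WBGene00000001, I:5107843-5110183, plus) and daf-16 (WBGene00000912, I:10750498-10776703, plus). The others are age-1 (WBGene00000090, II:11519328-11527054, minus), daf-2 (WBGene00000898, III:2994514-3040846, minus), daf-18 (WBGene00000913, IV:420011-425177, minus) and akt-1 (WBGene00000102, V:10248905-10252845, plus). The annotation gives daf-16 11 transcripts and daf-2 7, and the counts sum all transcripts of a gene, so isoforms were not told apart. Exons of 5 members overlap a gene on the opposite strand, by 192 bases in age-1, 136 in aap-1, 84 in daf-16, 15 in pdk-1 and 8 in akt-1. The libraries came from a stranded kit, and the strand setting of the counting is not given in the sources used here.

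The libraries held between 20660999 and 32655703 expected counts each, and the 10 members between 79 counts (the lowest library of ist-1) and 36746 (the highest of daf-18). Markers of neurons, muscle, intestine, hypodermis, germline, oocytes and sperm were all detected. Libraries that share a replicate number deviated alike from the means of their groups. Among libraries of other groups, the deviations of all 24 correlated best with those of a library of their own number. The libraries numbered 3 stood apart most, with a ribosomal RNA share of 7.92% to 14.55% of counts. The share was 5.59% to 8.83% for number 1 and 3.9% to 9.62% for number 2. Where the number pairs the samples, a fit with the number as a block is given beside any result whose call it changes.

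The core genes were expressed at very different levels. Levels are compared between genes as CPM (expected counts relative to a library's scaled total) per kilobase of exon, averaged over the 24 libraries. The phosphatase gene daf-18 stood highest at 245 ± 64.8 CPM per kb (SD, n = 24), above 97.6% of 15750 tested genes, and akt-1 came next at 128 ± 24.5. The adaptor gene aap-1 stood at 66.1 ± 12.27 and the receptor gene daf-2 at 26.9 ± 6.92. Each of daf-18, akt-1 and aap-1 was above the next gene in order in all 24 libraries, and daf-2 was above age-1 in 22.

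The next 4 genes followed at close levels. The mean was 17.6 ± 4.81 CPM per kb for age-1, 17.1 ± 6.29 for sgk-1, 13.2 ± 2.83 for pdk-1 and 12.8 ± 4.72 for akt-2. These neighbours did not separate in every library, since age-1 was above sgk-1 in 16 of 24 libraries, sgk-1 above pdk-1 in 19 and pdk-1 above akt-2 in 16. The transcription factor gene daf-16 was lower, at 8.65 ± 4.02 CPM per kb, below akt-2 in 22 libraries. The lowest was ist-1, an insulin receptor substrate homolog, at 1.501 ± 0.430 CPM per kb, below daf-16 in all 24.

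**Figure D1:**
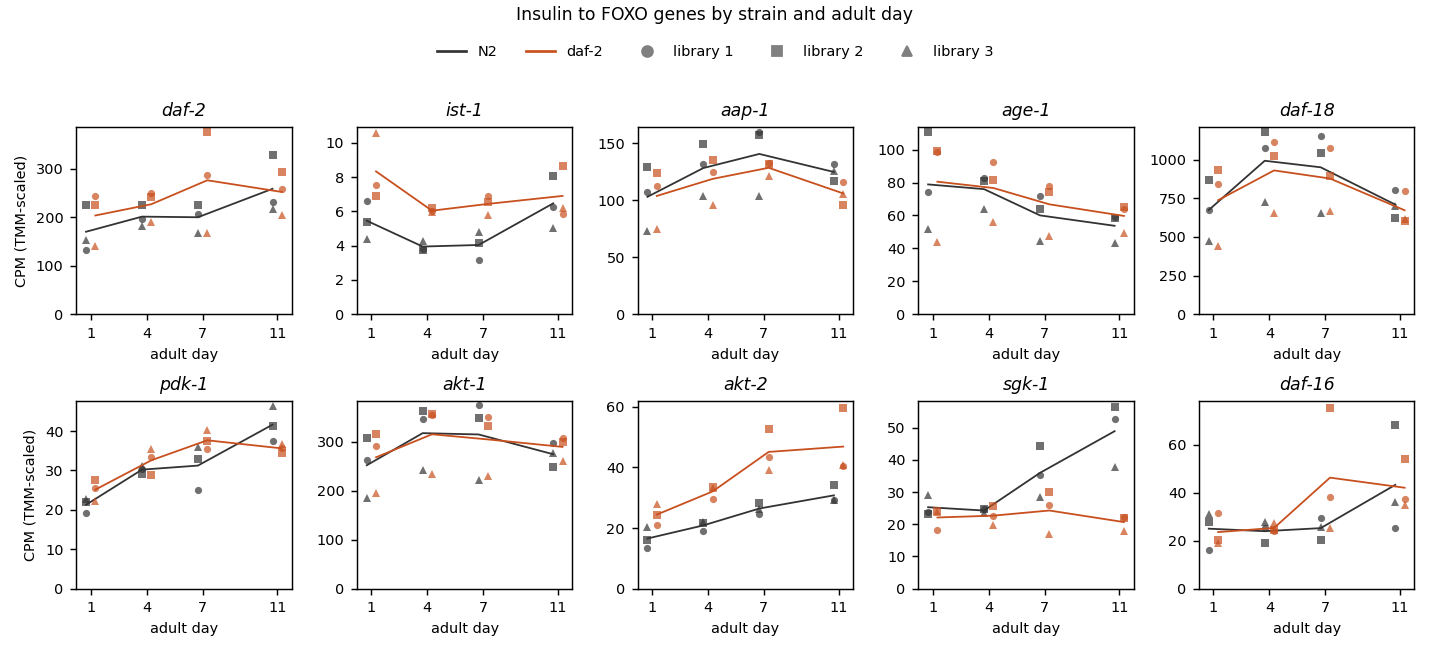
Level of each of the 10 genes (vertical axis, CPM scaled between libraries, from 0) against adult day (horizontal axis), 1 panel per gene. Each point is 1 library, its shape gives the library number, and lines join the group means of N2 (dark) and of CF1041 (orange, labelled daf-2). The strains separate at every age for akt-2, and at day 11 for sgk-1, which stands at 37.7 to 56.4 CPM in N2 and 18.02 to 22.1 CPM in CF1041.

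The comparison of each later age with day 1 in N2 asked which core genes change as wild-type adults age. With edgeR's quasi-likelihood test and a Benjamini-Hochberg adjusted p under 0.05 over all genes as the threshold, 1 of the 10 genes was higher at day 4, 2 at day 7 and 3 at day 11, all of them protein kinase genes, and none was lower. Of all genes tested, 9.08% passed at day 4 (3.01% higher), 25.9% at day 7 (12.8% higher) and 41.7% at day 11 (22.5% higher and 19.2% lower), so 3 of 10 at day 11 is no larger a share than the background. With the replicate number as a block, 5 members passed at day 11, with daf-2 higher and age-1 lower as the additional calls, and 56.8% of all genes did, so 5 of 10 is no larger a share either. The median log2 change of the members at day 11 was 0.44, against 0.10 for all genes tested. The median of all genes moved up by a further 0.18 with upper-quartile scaling and by 0.23 with library size alone, and 6 members then passed, as did 41.8% and 42.2% of all genes.

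The same comparison in CF1041 gave 0 of 10 members at day 4 (9.22% of all genes passed), 2 at day 7 (27.8%, with 15.1% higher) and 2 at day 11 (40.2%, with 22.2% higher and 18% lower). At day 4, 2 members had an unadjusted p under 0.05, a threshold for which the share of all genes was not counted. DESeq2's Wald test also called 0 at day 4, and the fit with the block called 2, pdk-1 and akt-2, with 22.9% of all genes. At day 7 the block raised the count to 4 (45.1% of all genes), and at day 11 to 3 (56.8%), with age-1 lower as the additional call. The median change at day 11 was 0.07 for the members and 0.09 for all genes. In bulk samples such as these, fewer cells of a type and less RNA per cell cannot be told apart.

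The test of the strains asked where the mutant differs from wild type. Averaged over the 4 ages, 3 of the 10 members passed, akt-2 and ist-1 higher and sgk-1 lower in CF1041, where 11.1% of all genes passed (6.9% higher, 4.2% lower). These 3 calls held when any 1 of the 24 libraries was left out. At single ages 0 members passed at day 1 (1.75% of all genes), 0 at day 4 (1.93%), 1 at day 7 (akt-2, with 2.1% of all genes and 1.1% higher) and 1 at day 11 (sgk-1, with 3.92% and 2.23% lower). At day 1 and at day 4, 2 members had an unadjusted p under 0.05, for which the share of all genes was not counted, and DESeq2 called 0. With the block, akt-2 passed at all 4 ages, which made the counts 1, 1, 1 and 2, where 3.97%, 4.93%, 5.25% and 9.64% of all genes passed.

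Whether the age change itself differs between strains was tested as strain by age. No member passed at day 4, day 7 or day 11, where 0%, 0.012% and 0.347% of all genes did. At days 4 and 7, 0 members had an unadjusted p under 0.05. At day 11, 2 members had an unadjusted p under 0.05, sgk-1 and pdk-1, and DESeq2 called 0 members. The shares of all genes given here are for the adjusted p, and the share at the unadjusted threshold was not counted. With the block sgk-1 passed, as did 1.56% of all genes.

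**Figure D2:**
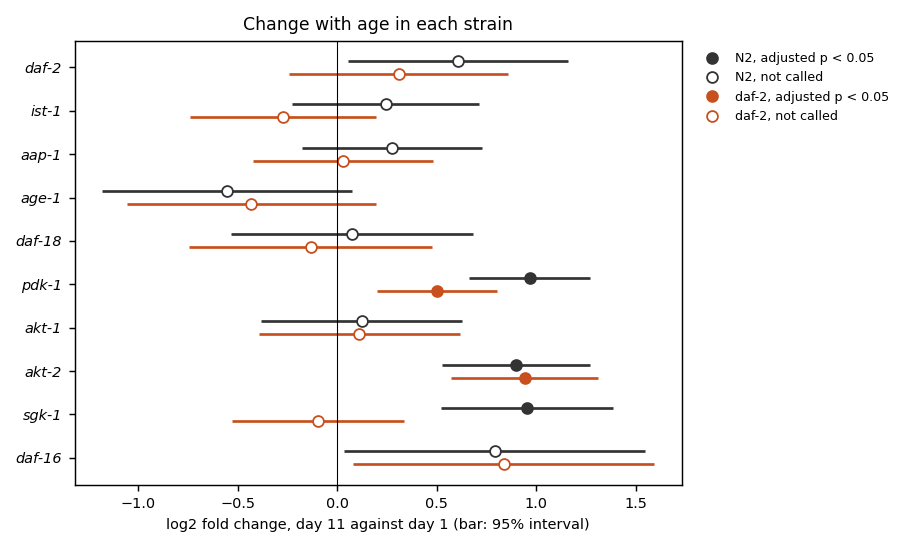
Log2 fold change from day 1 to day 11 (horizontal axis) of each gene in N2 (dark) and CF1041 (orange, labelled daf-2), with 95% intervals from edgeR's fit as bars. Filled points passed at an adjusted p under 0.05: pdk-1 and akt-2 in both strains and sgk-1 in N2, where its change was 0.95 against -0.10 in CF1041.

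**Figure D3:**
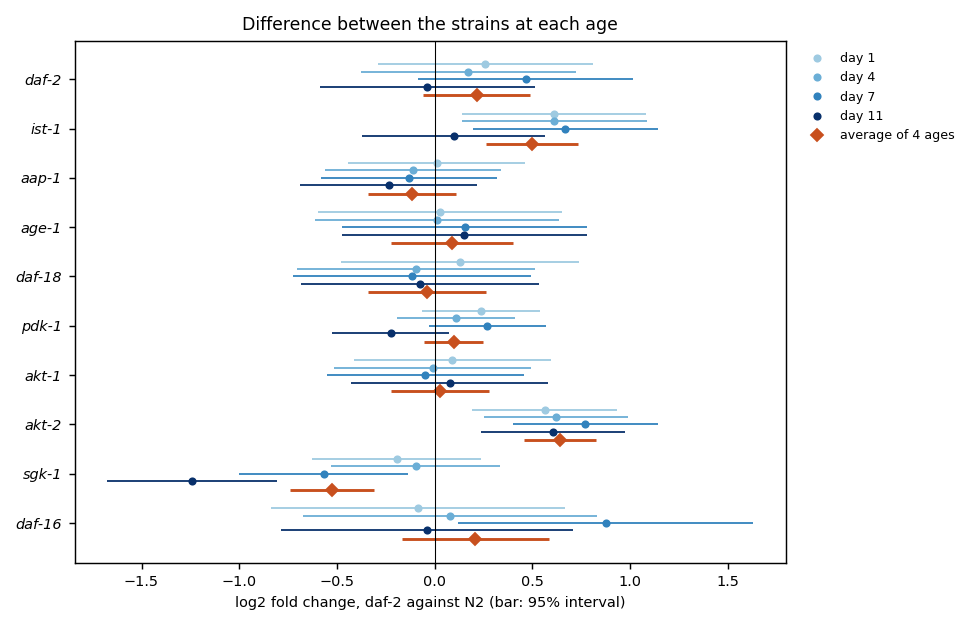
Log2 fold change of CF1041 against N2 (horizontal axis) at each age (blue, darker with age) and averaged over the 4 ages (orange diamonds), with 95% intervals as bars. The intervals of akt-2 lie above 0 at all 4 ages, and sgk-1 moves from -0.19 at day 1 to -1.24 at day 11.

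The receptor gene daf-2 was measured at 133, 225 and 153 CPM in N2 libraries 1, 2 and 3 at day 1, and at 231, 327 and 217 CPM at day 11. At days 4 and 7 the N2 libraries lay between 168 and 226 CPM. In CF1041 the values were 244, 226 and 141 CPM at day 1, 249, 241 and 189.8 at day 4, 286, 375 and 167 at day 7 and 258, 293 and 204 at day 11. Each numbered library was higher at day 11 than at day 1 in both strains, although the groups overlapped. The log2 change in N2 was 0.60 ± 0.27 (SE, n = 3 and 3), which did not pass (adjusted p = 0.073, edgeR) and passed with the block (adjusted p = 0.00349). It also passed with upper-quartile scaling (0.80, adjusted p = 0.00822), with library size alone (0.83, adjusted p = 0.00521), without the libraries numbered 3 (0.65, adjusted p = 0.0252) and without N2 day 1 library 2 (0.86, adjusted p = 0.0285). In CF1041 the changes were 0.44 ± 0.27 at day 7 (adjusted p = 0.225, or 0.0434 with the block) and 0.31 ± 0.26 at day 11 (adjusted p = 0.369). The mean difference between the strains was 0.22 ± 0.13 (95% interval -0.06 to 0.49, adjusted p = 0.388), with CF1041 higher in 8 of 12 pairs of libraries of the same age and number.

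The adaptor gene ist-1 was higher in the mutant. Its levels in N2 were 6.59, 5.38 and 4.40 CPM at day 1, 3.83, 3.75 and 4.27 at day 4, 3.14, 4.17 and 4.81 at day 7 and 6.26, 8.09 and 5.05 at day 11. In CF1041 they were 7.54, 6.88 and 10.6 CPM at day 1, 6.01, 6.17 and 5.94 at day 4, 6.92, 6.57 and 5.81 at day 7 and 5.82, 8.66 and 6.22 at day 11. The strains did not overlap at days 1, 4 and 7, overlapped at day 11, and CF1041 was higher in 11 of 12 same-number pairs. Averaged over ages the log2 difference was 0.50 ± 0.11 (1.41-fold, 95% interval 0.26 to 0.73, adjusted p = 0.00459, edgeR). No single age passed: the differences were 0.61 ± 0.23 at day 1 (adjusted p = 0.294), 0.61 at day 4, 0.67 at day 7 and 0.10 ± 0.22 at day 11. The strain by age value at day 11 was -0.52 ± 0.32 (adjusted p = 0.841), so a loss of the difference at day 11 was not shown. No change with age passed in either strain. With 79 to 328 counts per library, ist-1 is the least deeply counted member.

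The other adaptor gene, aap-1, encodes the regulatory subunit that partners AGE-1, and its values showed no difference that passed. N2 libraries held 107, 129 and 73.0 CPM at day 1, 132, 149 and 103.8 at day 4, 161, 158 and 104.2 at day 7 and 132, 117 and 126 at day 11. CF1041 libraries held 113, 124 and 74.6 CPM at day 1, 125, 136 and 95.8 at day 4, 133, 132 and 121 at day 7 and 116, 96.3 and 106 at day 11. At day 11 every CF1041 library was below every N2 library, but the difference of -0.24 ± 0.22 (SE, n = 3 and 3) did not pass (adjusted p = 0.78, edgeR). The largest age change in N2 was 0.45 ± 0.22 at day 7 (adjusted p = 0.136), which passed with upper-quartile scaling (0.54, adjusted p = 0.0276) and with library size alone (0.63, adjusted p = 0.0185). At day 11 in N2 the change of 0.28 ± 0.22 (adjusted p = 0.319) passed with the same scalings (0.48, adjusted p = 0.0329, and 0.52, adjusted p = 0.033). The mean difference between strains was -0.12 ± 0.11 (95% interval -0.34 to 0.11).

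The lipid kinase gene age-1 had lower means at later ages in both strains. Its N2 libraries held 74.2, 111 and 51.8 CPM at day 1, 82.9, 81.1 and 64.01 at day 4, 72.0, 63.8 and 44.3 at day 7 and 59.3, 58.7 and 43.1 at day 11. The CF1041 libraries held 98.3, 99.4 and 43.8 CPM at day 1, 92.5, 81.5 and 56.0 at day 4, 78.2, 74.5 and 47.7 at day 7 and 64.2, 65.4 and 49.5 at day 11. Library 3 was the lowest in all 8 groups, and it alone made days 1 and 11 overlap: libraries 1 and 2 were lower at day 11 than at day 1 in both strains, and library 3 of CF1041 was not. The N2 change at day 11 was -0.55 ± 0.30 (SE, n = 3 and 3, adjusted p = 0.147, edgeR) and passed with the block (-0.52, adjusted p = 0.00631). In CF1041 it was -0.43 ± 0.30 (adjusted p = 0.263) and also passed with the block (-0.37, adjusted p = 0.0445). Without the libraries numbered 3 the changes were -0.64 in N2 (adjusted p = 0.00287) and -0.61 in CF1041 (adjusted p = 0.00428). Leaving out day 1 library 3 alone had the same effect on the call, with -0.78 in N2 (adjusted p = 0.0493) and -0.73 in CF1041 (adjusted p = 0.0441). The mean difference between strains was 0.09 ± 0.15 (95% interval -0.23 to 0.40).

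The phosphatase gene daf-18, which opposes AGE-1, had its highest means in mid-adulthood. In N2 it was at 675, 871 and 476 CPM at day 1, 1075, 1177 and 725 at day 4, 1151, 1044 and 655 at day 7 and 801, 624 and 701 at day 11. In CF1041 it was at 839.8, 930.3 and 442 CPM at day 1, 1115, 1021 and 653 at day 4, 1072, 891 and 669 at day 7 and 797, 602 and 617 at day 11. The ages overlapped in every comparison with day 1, and library 3 was the lowest in 6 of 8 groups. The N2 changes were 0.56 ± 0.29 at day 4 (adjusted p = 0.263, edgeR), 0.50 ± 0.29 at day 7 and 0.07 ± 0.29 at day 11. None passed, and without the libraries numbered 3 the first of them did (0.54, adjusted p = 0.0444), as did the second (0.51, adjusted p = 0.0346). The mean difference between strains was -0.04 ± 0.15 (95% interval -0.34 to 0.27).

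PDK-1 is the kinase that activates the AKT kinases, and pdk-1 rose with age in both strains. N2 libraries 1, 2 and 3 held 19.1, 22.1 and 22.6 CPM at day 1, 30.4, 29.1 and 31.02 at day 4, 24.9, 32.8 and 35.9 at day 7 and 37.4, 41.2 and 46.3 at day 11. CF1041 libraries held 25.6, 27.6 and 22.1 CPM at day 1, 33.5, 28.8 and 35.4 at day 4, 35.4, 37.3 and 40.2 at day 7 and 35.7, 34.3 and 36.8 at day 11. No later age overlapped day 1 in either strain. The N2 rise was 0.50 ± 0.15 at day 4 (SE, n = 3 and 3, adjusted p = 0.032, edgeR), 0.55 ± 0.15 at day 7 (adjusted p = 0.00778) and 0.97 ± 0.15 at day 11 (1.96-fold, adjusted p = 2.56e-05). The CF1041 change was 0.37 ± 0.15 at day 4 (adjusted p = 0.114, or 0.0308 with the block), 0.58 ± 0.15 at day 7 (adjusted p = 0.00516) and 0.50 ± 0.15 at day 11 (1.42-fold, adjusted p = 0.0092).

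The day 4 call of pdk-1 in N2 was lost with upper-quartile scaling (adjusted p = 0.0577, edgeR) and without a low-count filter (adjusted p = 0.0716). It was lost with only the groups compared (adjusted p = 0.11) and without any of 5 libraries. These were day 1 libraries 1 and 2 (adjusted p = 0.162 and 0.0507) and day 4 libraries 1, 2 and 3 (adjusted p = 0.0876, 0.0758 and 0.085). The N2 day 7 call was lost without day 7 library 3 (0.44, adjusted p = 0.0516) and with only the groups compared (0.63, adjusted p = 0.0852). Fitting only the groups compared also lost the CF1041 day 7 call (0.61, adjusted p = 0.0609). At day 11 the strains changed places: every N2 library was above every CF1041 library, with a strain difference of -0.23 ± 0.14 that did not pass (adjusted p = 0.557). The strain by age value at day 11 was -0.46 ± 0.20 (95% interval -0.89 to -0.04, adjusted p = 0.572), so the smaller value in CF1041 was not shown to differ from that in N2.

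The 2 AKT kinase genes had different patterns. The more abundant, akt-1, showed no change that passed in any of the 14 comparisons by the fit of all libraries. Without the libraries numbered 3, its N2 change at day 7 passed (0.34, adjusted p = 0.0259, edgeR). Its N2 libraries held 264, 308 and 185 CPM at day 1, 348, 364 and 243 at day 4, 375, 349 and 223 at day 7 and 298, 249 and 277 at day 11. Its CF1041 libraries held 293, 317 and 196 CPM at day 1, 356, 357 and 234 at day 4, 352, 333 and 231 at day 7 and 309, 299.5 and 262 at day 11. All groups compared overlapped, and library 3 was the lowest in 7 of 8 groups. The mean difference between strains was 0.03 ± 0.12 (95% interval -0.22 to 0.28). The change at day 11 was 0.12 ± 0.24 in N2 (95% interval -0.38 to 0.63) and 0.11 ± 0.24 in CF1041.

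The second AKT kinase gene, akt-2, was higher in the mutant at each age and rose with age in both strains. In N2 it stood at 13.4, 15.9 and 20.3 CPM at day 1, 18.9, 21.7 and 21.997 at day 4, 24.7, 28.2 and 26.4 at day 7 and 29.2, 34.1 and 29.1 at day 11. In CF1041 it stood at 21.1, 24.3 and 27.9 CPM at day 1, 29.5, 33.6 and 33.2 at day 4, 43.5, 52.8 and 39.2 at day 7 and 40.3, 59.7 and 40.7 at day 11. The strains did not overlap at any age, and CF1041 was higher in 12 of 12 same-number pairs. The mean log2 difference was 0.64 ± 0.09 (1.56-fold, 95% interval 0.46 to 0.83, adjusted p = 2.56e-05, edgeR). By age it was 0.56 ± 0.18 at day 1 (adjusted p = 0.159, or 0.0218 with the block), 0.62 ± 0.18 at day 4 (adjusted p = 0.0842, or 0.00906 with the block), 0.77 ± 0.18 at day 7 (adjusted p = 0.0202) and 0.61 ± 0.18 at day 11 (adjusted p = 0.0586, or 0.00689 with the block).

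The rise of akt-2 with age passed in both strains. In N2 it was 0.68 ± 0.18 at day 7 (adjusted p = 0.00798, edgeR, n = 3 and 3) and 0.90 ± 0.18 at day 11 (1.86-fold, adjusted p = 0.000472). In CF1041 it was 0.89 ± 0.18 at day 7 (adjusted p = 0.000989) and 0.94 ± 0.18 at day 11 (1.92-fold, adjusted p = 0.000331), and at day 4 it was 0.39 ± 0.18 (adjusted p = 0.18, or 0.0422 with the block). The strain by age value at day 11 was 0.04 ± 0.25 (95% interval -0.48 to 0.57). The strain call at day 7 was lost without any of 5 libraries: N2 day 7 libraries 1, 2 and 3 (adjusted p = 0.123, 0.054 and 0.073) and CF1041 day 7 libraries 1 and 2 (adjusted p = 0.0527 and 0.161). That call was also lost without a low-count filter (0.73, adjusted p = 0.101) and with only the groups compared (0.77, adjusted p = 0.0927). The N2 day 7 age call was lost without N2 day 1 library 1 (0.55, adjusted p = 0.0586). The strain difference passed at day 1 without N2 day 1 library 3 (0.74, adjusted p = 0.0478) and at day 11 without CF1041 day 11 library 3 (0.70, adjusted p = 0.0499).

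The kinase gene sgk-1 rose with age in N2, and its change in CF1041 did not pass. Its N2 libraries held 23.7, 23.1 and 29.02 CPM at day 1, 24.7, 24.6 and 23.5 at day 4, 35.2, 44.2 and 28.5 at day 7 and 52.6, 56.4 and 37.7 at day 11. Its CF1041 libraries held 18.3, 24.1 and 23.9 CPM at day 1, 22.6, 25.6 and 19.7 at day 4, 25.9995, 29.9 and 16.9 at day 7 and 22.1, 21.9 and 18.02 at day 11. The strains overlapped at days 1, 4 and 7, and at day 11 the lowest N2 library was above the highest CF1041 library. The N2 rise at day 11 was 0.95 ± 0.21 (SE, n = 3 and 3, 1.93-fold, adjusted p = 0.00106, edgeR), and the CF1041 value was -0.10 ± 0.21 (95% interval -0.53 to 0.33, adjusted p = 0.736). At day 7 the N2 change was 0.51 ± 0.21 (adjusted p = 0.0752), with group means of 35.97 ± 7.87 CPM (SD) at day 7 and 25.3 ± 3.25 at day 1. It passed with upper-quartile scaling (adjusted p = 0.0314), with library size alone (adjusted p = 0.00937) and without N2 day 7 library 3 (0.65, adjusted p = 0.0425).

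The strain difference of sgk-1 passed at day 11 and at none of the earlier ages. It was -0.19 ± 0.21 at day 1 (adjusted p = 1, edgeR), -0.10 ± 0.21 at day 4 (adjusted p = 0.939), -0.57 ± 0.21 at day 7 (adjusted p = 0.249) and -1.24 ± 0.21 at day 11 (2.37-fold lower in CF1041, 95% interval -1.68 to -0.81, adjusted p = 0.000773). The mean over ages was -0.53 ± 0.10 (1.44-fold lower, adjusted p = 0.00125), with CF1041 lower in 10 of 12 same-number pairs. The test of the difference in age change at day 11 gave -1.05 ± 0.29 (95% interval -1.66 to -0.44). It did not pass over all genes (unadjusted p = 0.00177, adjusted p = 0.173) and passed with the block (-1.03, adjusted p = 0.0322) and without the libraries numbered 3 (-1.17, adjusted p = 0.0251). DESeq2 gave -1.02 with adjusted p = 0.0695.

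The FOXO gene daf-16, on whose protein the pathway ends, varied most between libraries of a group, with a biological coefficient of variation of 0.310, the highest of the 10. Its N2 libraries held 16.0, 27.8 and 31.3 CPM at day 1, 25.3, 18.9 and 27.7 at day 4, 29.5, 20.5 and 25.8 at day 7 and 25.4, 68.5 and 36.1 at day 11. Its CF1041 libraries held 31.8, 20.2 and 18.8 CPM at day 1, 24.1, 24.4 and 27.5 at day 4, 38.2, 75.5 and 25.4 at day 7 and 37.3, 54.3 and 34.8 at day 11. Library 2 was far above the others in N2 at day 11 and in CF1041 at day 7, and it was the highest of CF1041 at day 11. Day 11 did not overlap day 1 in CF1041 and overlapped it in N2. The day 11 change was 0.79 ± 0.36 in N2 (SE, n = 3 and 3, adjusted p = 0.0861, edgeR) and 0.84 ± 0.36 in CF1041 (adjusted p = 0.0715), and each numbered library was higher at day 11 in both strains.

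At day 7 the CF1041 change of daf-16 was 0.97 ± 0.36 (adjusted p = 0.0507), which passed with the block (0.90, adjusted p = 0.0421) and by DESeq2 (0.93, adjusted p = 0.0409). Without CF1041 day 1 library 1 it was 1.25 (adjusted p = 0.0363) and without day 7 library 3 it was 1.27 (adjusted p = 0.0163). At day 11 the change passed in N2 without day 11 library 1 (1.06, adjusted p = 0.0315) and in CF1041 without day 1 library 1 (1.11, adjusted p = 0.0453). Upper-quartile scaling and library size alone also put both day 11 changes past the threshold, with values of 0.97 and 1.00 in N2 and of 1.05 with each in CF1041. The mean difference between strains was 0.21 ± 0.18 (95% interval -0.17 to 0.58, adjusted p = 0.568).

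Within a library, the kinase genes were set against each other as ratios of CPM per kb, which scaling between libraries does not alter. These ratios were chosen after the gene results were known, and 6 tests make up the family. They use the same libraries, in which akt-2 and sgk-1 had passed between strains and akt-1 had not. The strain tests of the ratios to akt-1 therefore restate those results and lend them no separate support. The permutations regrouped libraries without regard to their number. Differences between library numbers are therefore part of the spread these tests use. For every 100 of akt-1 there were 6.75, 6.52, 8.46 and 10.8 of akt-2 at days 1, 4, 7 and 11 in N2 (group means), and 9.27, 10.2, 14.4 and 15.5 in CF1041. The ratio was higher in CF1041 in 12 of 12 same-number pairs, by a log2 difference of 0.61 (exact permutation test of strain within ages, two-sided p = 0.00194, adjusted p = 0.0116). From day 1 to day 11 it was 0.78 higher (exact permutation test within strains, two-sided p = 0.035, adjusted p = 0.0525, where the smallest possible p is 0.005). A ratio shows unequal change of the pair, not that either gene stood still.

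For every 100 of akt-1 there were 14.9, 10.9, 16.2 and 25.01 of sgk-1 in N2 and 12.1, 10.2, 11.0 and 9.91 in CF1041. This ratio was lower in CF1041 in 10 of 12 pairs (log2 -0.56, exact permutation two-sided p = 0.00396, adjusted p = 0.0119). Its age test averages the 2 strains (log2 0.28, exact permutation two-sided p = 0.34). From day 1 to day 11 the ratio moved by 0.79 in N2 and by -0.23 in CF1041, so that average describes neither strain. The change within each strain was not tested. For every 100 of daf-18 there were 9.78, 6.63, 5.41 and 6.50 of age-1 in N2 and 9.13, 7.03, 6.44 and 7.62 in CF1041, a ratio of the kinase gene to that of its opposing phosphatase. Day 11 differed from day 1 by -0.44 on the log2 scale (exact permutation two-sided p = 0.015, adjusted p = 0.03), and was lower in 5 of 6 same-number pairs. The strain difference of 0.12 did not pass (exact permutation p = 0.116, adjusted p = 0.14).

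**Figure D4:**
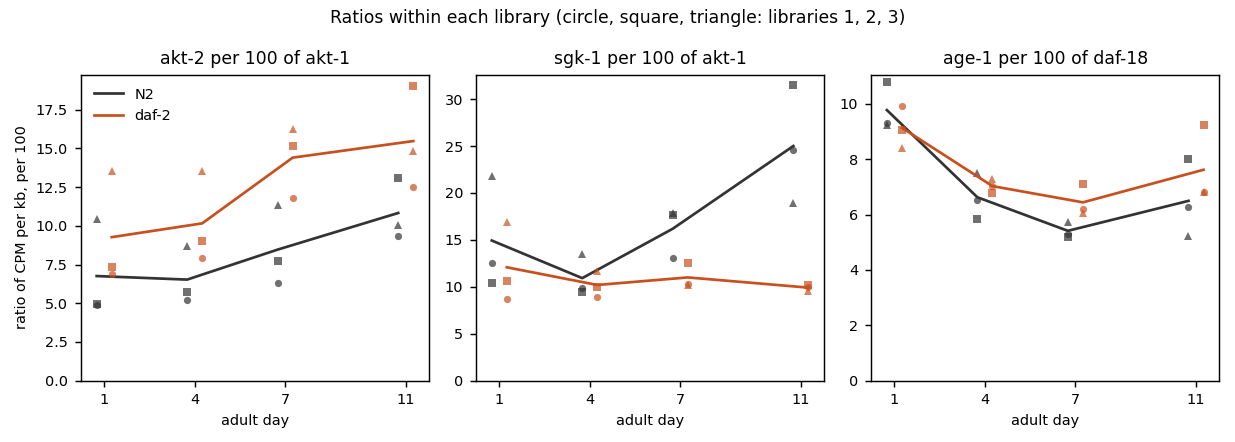
Ratios within each library of CPM per kb, per 100 of the second gene (vertical axis, from 0), against adult day (horizontal axis), for akt-2 to akt-1, sgk-1 to akt-1 and age-1 to daf-18. Points are libraries, shapes their numbers, and lines join group means of N2 (dark) and CF1041 (orange, labelled daf-2); the sgk-1 ratio ends at 25.01 in N2 and 9.91 in CF1041.

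The members differed by degrees in how they varied with the library number. In the libraries numbered 3, age-1 lay 0.43 below its group means on the log2 scale (a mean deviation of -0.43 over the 8 groups), daf-18 at -0.37, akt-1 at -0.32, daf-2 at -0.30 and aap-1 at -0.25. The deviations of the X-linked kinase genes were 0.08 for pdk-1, 0.02 for akt-2 and -0.16 for sgk-1, with daf-16 at -0.08 and ist-1 at -0.02. Library 3 was the lowest of its group in 6 of 8 groups for sgk-1, as it was for aap-1 and daf-18. Deviations were also taken of the summed CPM of each marker list, which its most abundant marker can set. In the same libraries the germline list (5 markers) lay at -0.39, oocyte (4) at -0.51 and body muscle (4) at -0.53, the lowest in 8 of 8 groups each. The other lists lay at -0.10 (intestine), 0.05 (neuron), 0.06 (hypodermis) and 0.39 (sperm, 4 markers). The part of the marker lists in the deviations of the members was not tested.

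**Figure D5:**
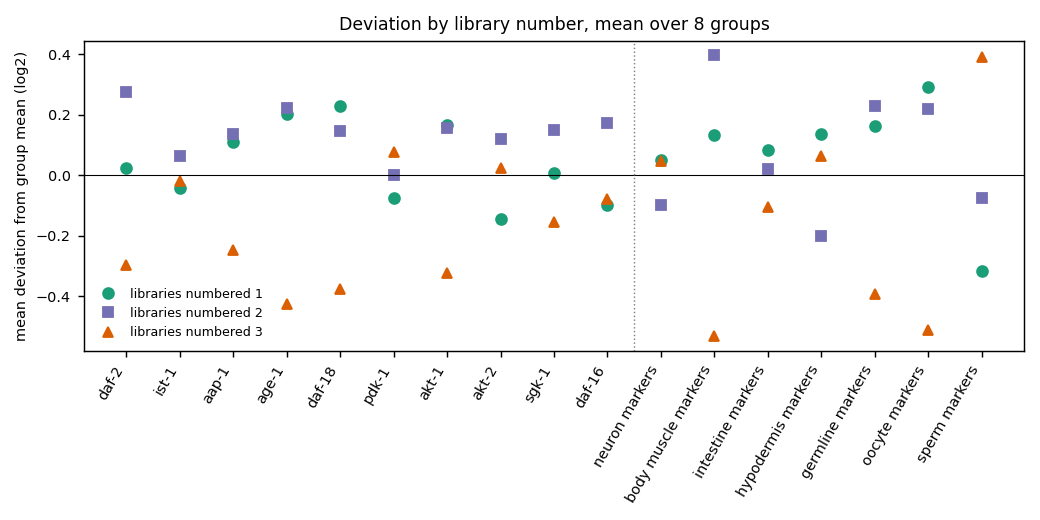
Mean deviation from the group mean over 8 groups (vertical axis, log2) of the libraries numbered 1, 2 and 3, for the 10 genes and, right of the dotted line, for 7 lists of cell type markers. Triangles (number 3) lie at -0.25 or lower for daf-2, aap-1, age-1, daf-18 and akt-1 and for muscle, germline and oocyte markers, and near 0 for pdk-1 and akt-2.

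The members that passed in any comparison by the fit without the block were ist-1, pdk-1, akt-2 and sgk-1. They are the 4 that lie on the X chromosome, a grouping noticed after the results were known. The share of genes that passed in any of the 14 comparisons was not counted, on X or elsewhere. In N2 at day 11 alone, 41.7% of all genes passed. The X chromosome holds 14.2% of the tested nuclear protein-coding genes (2230 genes). X-linked genes as a whole had a median log2 change of 0.40 in N2 from day 1 to day 11, with 29.6% higher and 13.2% lower, against 0.03 for autosomal genes (20.9% higher, 20.9% lower). In CF1041 the medians were 0.18 for X-linked and 0.04 for autosomal genes, with 20.8% and 21.7% higher. In N2 the changes of pdk-1, akt-2 and sgk-1 were 0.97, 0.90 and 0.95, above the X-linked median of 0.40, and that of ist-1 was 0.24, below it. The genes above the median are those that passed in this comparison, so their place above it follows from that choice. For the strain difference over ages the medians were 0.05 and -0.00. Of X-linked genes 6.77% were higher and 6.14% lower, and of autosomal genes 6.74% were higher and 4.03% lower.

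Germline markers fell over the same interval, 4 of 5 in N2 and 3 of 5 in CF1041, where 19.2% and 18% of all genes were lower. Their summed level ranged from 1033 to 1694 CPM at day 1, 973 to 1297 at day 4, 588 to 904 at day 7 and 561 to 854 at day 11 in N2. In CF1041 it ranged from 817 to 1476 CPM, 728 to 1087, 599.6 to 985 and 598 to 894 at the same ages. None of the 5 was at 0 in all 24 libraries. Of 4 body muscle markers 4 fell in each strain, as did 3 of 5 intestine and 2 of 4 hypodermis markers, while 3 of 4 sperm markers rose, where 22.5% of all genes in N2 and 22.2% in CF1041 were higher, and 0 of 4 oocyte markers passed. The part of these markers in the changes of the kinase genes was not tested.

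For each member, the genes most like it over the 24 libraries were found by Pearson's r of log2 CPM among 5182 named protein-coding genes (5183 for ist-1) with a mean of at least 10 CPM. All values share the same libraries, ages and library numbers, and are given as a description. The closest genes were tbc-14 (r = 0.93) and apx-1 (0.92) for daf-2, cca-1 (0.81) and gob-1 (0.76) for ist-1, swsn-2.2 (0.97) and rga-1 (0.96) for aap-1, and nhr-66 (0.97) and apb-1 (0.96) for age-1. For daf-18 they were cpg-1 (0.98), a gene of the eggshell proteoglycans, and gln-6 (0.97), and for akt-1 hrde-2 and mesp-1 (0.97 each). For pdk-1 they were ten-1 (0.94), the teneurin gene, and ipla-2 (0.92), for akt-2 fbxa-182 (0.97) and bam-2 (0.96), for sgk-1 tyr-4 (0.89) and ads-1 (0.88), and for daf-16 mnk-1 (0.96) and msi-1 (0.94). Both genes nearest ist-1 lie on X, and of the 6 nearest pdk-1, akt-2 and sgk-1 only ipla-2 does.

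The core genes can be set beside other genes of the pathway. Upstream, 40 insulin-like peptide genes were listed and 27 were tested. In N2 at day 11, 9 were higher and 2 lower, and in CF1041 7 were higher and 4 lower. With 41.7% of all genes passing in N2 and 40.2% in CF1041, 11 of 27 in each strain is about the background. Among those with a mean of at least 10 CPM, ins-17 rose in both strains (1.46 ± 0.19 in N2 and 1.34 ± 0.18 in CF1041, SE), and ins-7, a peptide gene that DAF-16 activity lowers, rose in N2 (4.94 ± 0.52) and had 0.81 ± 0.52 in CF1041 (adjusted p = 0.223, edgeR). Over the 4 ages 10 peptide genes were higher and 2 lower in CF1041, where 6.9% of all genes were higher and 4.2% lower, with ins-17 higher by 0.37 ± 0.09 and ins-7 lower, at -2.94 ± 0.25.

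Of 34 partners and regulators of the core, 31 were tested. In N2 at day 11, 7 were higher and 4 lower, with a median of 0.23. They included pqm-1, a transcription factor gene whose protein opposes DAF-16 in the nucleus (1.49 ± 0.26), cst-1, the worm MST kinase gene (1.33 ± 0.43), the beta-catenin gene bar-1 (0.82 ± 0.20) and the syntaxin gene unc-64 (0.71 ± 0.21). In CF1041 3 were higher and 2 lower, with bar-1 at 0.58 ± 0.19, the TOR activator gene rheb-1 at -0.50 ± 0.15, asna-1, a gene that promotes insulin secretion, at 0.40 ± 0.13 and the sirtuin gene sir-2.1 at -0.32 ± 0.12. Neither 11 of 31 in N2 nor 5 of 31 in CF1041 is a larger share than the 41.7% and 40.2% of all genes that passed. Only 1 of the 31 passed between the strains over ages, aak-2, an AMP-activated kinase subunit gene, higher in CF1041 by 0.27 ± 0.07 (adjusted p = 0.0175, edgeR). In that contrast 11.1% of all genes passed, and 3 of the 10 core genes.

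Downstream, genes known from earlier work to respond to DAF-16 were counted in the same contrast. Of 14 tested class I targets, which DAF-16 raises, 12 were higher and 0 lower in CF1041 over ages, where 6.9% of all genes were higher and 4.2% lower. The median was 1.21, against 0.09 for the core genes and 0.01 for all genes. The metallothionein gene mtl-1 was higher by 3.37 ± 0.28, the superoxide dismutase gene sod-3 by 2.09 ± 0.16, dod-3 by 2.03 ± 0.25 and the ferritin gene ftn-1 by 1.85 ± 0.26. Of 12 class II targets, which are lower when DAF-16 is active, 5 were lower and 0 higher, including dod-23 (-2.32 ± 0.16), the yolk protein gene vit-5 (-0.99 ± 0.22) and dod-24 (-0.97 ± 0.25). Over the same contrast daf-16 itself differed by 0.21 ± 0.18 and did not pass.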

How the data were processed

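The authors deposited expected counts per gene for each of the 24 libraries, which need not be whole: 929 to 1198 values per library were not, and all were rounded here. STAR 2.7.0e and RSEM 1.3.1 are listed in the submitters' processing notes, as are the builds ce11 and WBcel235, with no role given. Per the labels' protocols, libraries were stranded and made from total RNA depleted of ribosomal RNA, which bears on ribosomal levels. Symbols and positions came from Ensembl 115 (46817 of 46904 identifiers matched). No genome or protein sequence was used here.

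After edgeR's filterByExpr, TMM factors scaled the libraries. The 8 group means were fitted together over 24 libraries (biological coefficient of variation 0.273). Each of 14 contrasts was tested by edgeR (quasi-likelihood), with Benjamini-Hochberg adjustment over 16698 genes and a threshold of 0.05. An SE is the size of the change divided by the root of F. Log2 CPM used a prior count of 2. Libraries with the same number in their titles deviated together, with every pair's correlation above 0.1 except in N2 at days 4 and 7 against day 1. The 14 contrasts were fitted without the number. In the other comparisons, and in strain by age at day 11, a second fit with the number as a block is given beside the calls it changes. No 2 libraries of a group agreed within sampling noise (lowest median chi-square 2.43). Scripts were tested on simulated counts.

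The members, gene lists, tests and alternatives were chosen with earlier results of these data known. Named were all 10 members and, per other list, up to 4 passing genes with the largest change at a mean of 10 CPM or more. The symbol ins-38 was not matched. Alternatives were library size alone, upper-quartile or RLE factors, DESeq2, no low-count filter, a replicate block, only the groups compared, and leaving out the libraries numbered 3 or each library. Tools were DESeq2 1.42.0 and edgeR 4.0.16 (with limma 3.58.1) under R 4.3.3, and matplotlib 3.10.9, pandas 2.3.3 and numpy 2.4.6 under Python 3.11.15.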

Additional observations from a re-analysis of the deposited data

How the results depend on the processing

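No value that passed changed its direction under any alternative run, and RLE scaling changed no call of a member. Having 3 libraries a group with a biological coefficient of variation of 0.273 limits what could be detected. Leaving out the libraries numbered 3 leaves 2 per group. A fit of only the groups compared cannot be made for the average over ages, which already uses all of them. A fit with 1 library left out assumes that the remaining 2 vary as the others do. The cause of the shifts below was not tested.

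With the replicate number as a block, 2 members passed in N2 at day 4, 5 at day 7 and 5 at day 11 (1, 2 and 3 without it), 2, 4 and 3 in CF1041 at days 4, 7 and 11 (0, 2 and 2), 1, 1 and 2 between strains at days 1, 4 and 11 (0, 0 and 1) and 1 for strain by age at day 11 (0). In N2 at days 4 and 7, where a pair's correlation fell short of 0.1 (0.0845 and 0.0952, number 1), the block added daf-18 (adjusted p = 0.0257 and 0.0295), aap-1 (adjusted p = 0.0183, day 7) and sgk-1 (adjusted p = 0.0289, day 7), by edgeR. Genes passing with the block numbered 3854 (1516 without) and 7148 (4324) in N2 at days 4 and 7, 3818 (1539) and 7529 (4642) in CF1041, and 663 (293), 823 (323), 877 (350) and 1609 (655) between strains at days 1, 4, 7 and 11. Over ages they numbered 3693 (1854), and for strain by age 30 (2) at day 7 and 260 (58) at day 11. The block changed no other call of a member than those given here and in the text above.

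Without the libraries numbered 3, 2, 8 and 5 members passed in N2 at days 4, 7 and 11, where 3031, 6129 and 8964 genes passed. For strain by age at day 11, 1 member then passed. The 8 at day 7 were 6 higher and 2 lower, age-1 and ist-1 (edgeR adjusted p = 0.033 and 0.0291). Genes passing without these libraries also numbered 2319 in CF1041 at day 4, 997 between strains at day 11, and 4 and 135 for strain by age at days 7 and 11. The low-count filter was run anew whenever libraries were left out or only some groups were fitted. The number of genes then tested was not kept, so no share of all genes stands beside the member counts of those runs. With upper-quartile scaling 0, 4 and 6 members passed in N2 at days 4, 7 and 11, where 1380, 4231 and 6984 genes passed. With library size alone 4 and 6 members passed at days 7 and 11 in N2 (4342 and 7042 genes) and 2 between strains at day 11 (597 genes). For strain by age at day 7, 5 genes passed with library size alone. That scaling raised the share of passing genes that were higher from 53.9% to 69.5% in N2 at day 11 (65.4% with upper quartile) and from 55.3% to 69.4% in CF1041 (68.9%). Earlier it moved from 33.2% to 52.9% and from 49.6% to 68.2% in N2 at days 4 and 7, and from 45.7% to 57.1% in CF1041 at day 4. Without a low-count filter 0 members passed in N2 at day 4, where 1173 genes passed, and 0 between strains at day 7, where 293 genes did. A fit of only the groups compared called 0 and 1 members in N2 at days 4 and 7, 1 in CF1041 at day 7 and 0 between strains at day 7. Its genes numbered 828 and 2518 in N2 and 646 and 2602 in CF1041 at days 4 and 7, 75 and 194 between strains at days 1 and 7, and 0 and 18 for strain by age at days 7 and 11. DESeq2 called 2 members between strains at day 11, and 502, 535 and 998 genes at days 4, 7 and 11 between strains and 4, 47 and 171 for strain by age at days 4, 7 and 11.

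With 1 library left out, members passing ranged from 0 to 1 in N2 at day 4, 1 to 2 at day 7 and 3 to 4 at day 11, from 2 to 3 in CF1041 at days 7 and 11, from 0 to 1 between strains at days 1 and 7, and from 1 to 2 at day 11. Genes passing ranged from 711 to 1554 and 2854 to 4544 in N2 at days 4 and 7, 907 to 1333 in CF1041 at day 4, and from 168 to 326, 173 to 268, 181 to 306 and 381 to 605 between strains at days 1, 4, 7 and 11. In N2 at day 11 they ranged from 5567 to 7135, and in CF1041 from 3342 to 4684 at day 7 and 5207 to 7150 at day 11. For strain by age they ranged from 0 to 1, 0 to 11 and 19 to 95 at days 4, 7 and 11.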
